A study of Mus musculus with 6 samples.

Results

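The contractile genes of smooth muscle and of myofibroblasts were followed in mouse lung cells after C1q was instilled into the airway. They are Acta2, Tagln, Myh11, Cnn1, Actg2, Des, Myl9, Tpm2, Lmod1 and Mylk, 10 genes chosen by name from the 26890 gene symbols counted. All 10 had counts in every library and passed the filter on low counts. The 3 C1q libraries came from C57BL/6 wild-type mice given 20 µg of C1q per mouse into the trachea, and the 3 saline libraries from C57BL/6 wild-type mice labelled as saline-treated. Both groups were taken at day 3. The sources used here give neither age nor sex of the mice, and the instillation they describe is that of C1q. Lungs were digested enzymatically and a Percoll layer of cells was kept, so the values describe the recovered cells and not intact bronchi or vessels. The libraries read the 5′ ends of polyadenylated transcripts from the bulk cell lysate.

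Smooth muscle contracts when calcium activates myosin light chain kinase, which phosphorylates the regulatory light chain of myosin and lets the motor pull on actin filaments. In the lung such cells wrap airways and vessels, and related myofibroblasts ring the alveolar ducts. Fibroblasts that become myofibroblasts during scarring are classically recognised by the smooth muscle actin encoded by Acta2. Many of these genes are driven by serum response factor (SRF) and its partner myocardin through a promoter element called the CArG box.

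Total counts were 2227619 to 3650793 in the C1q libraries and 2577429 to 2991562 in the saline libraries. The surfactant gene Sftpc, which marks lung tissue, stood at 21460 to 24420 CPM in the C1q libraries and 15950 to 32860 CPM in the saline libraries (CPM, counts scaled to library size and by TMM, as all levels below). The endothelial gene Pecam1 averaged 440 ± 53.4 CPM in C1q and 518 ± 32.4 CPM in saline, and the leukocyte gene Ptprc 138 ± 21.7 CPM in C1q and 146 ± 32.9 CPM in saline (SD, n = 3 each). The cells recovered were therefore of many types, and fewer cells of a type and less RNA per cell cannot be told apart. Levels are compared between groups for each gene, not between genes.

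To show the sequence around the annotated starts of these genes, promoter windows of 250 bases before to 50 bases after the start were taken from RefSeq (GRCm38.p6), whose table had an entry for 7 of the 10 genes. The windows are annotation, since the counts are per gene and carry no start positions. That of Mylk (chr16:34784700-34784999) lies inside the gene as annotated in GENCODE. The windows of Acta2 and Tpm2 lie mostly inside their genes as annotated there, since GENCODE places those gene starts farther upstream. The window of Acta2, on the minus strand of chr19:34255324-34255623, is printed whole because Acta2 is the defining gene of the group. Capitals mark matches to the CArG box with at most 1 mismatch.
Acta2: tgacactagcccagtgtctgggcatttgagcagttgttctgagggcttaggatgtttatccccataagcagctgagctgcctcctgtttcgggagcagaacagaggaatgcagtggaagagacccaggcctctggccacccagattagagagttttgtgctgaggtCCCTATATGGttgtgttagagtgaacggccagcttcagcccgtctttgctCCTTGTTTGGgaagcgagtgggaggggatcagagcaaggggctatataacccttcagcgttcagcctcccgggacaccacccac

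The CArG box reads CC, then 6 letters that are each A or T, then GG, and its reverse complement has the same form, so 1 search covers both strands. In Acta2 the matches began 84 and 34 bases before the RefSeq start, each with 1 mismatch. Both lie inside Acta2 as annotated in GENCODE, where the gene runs from 34241090 to 34255590. Myl9 and Lmod1 held 2 matches each as well, shown with 10 bases on either side. They lie on the plus strand at chr2:156775293-156775322 and chr2:156775355-156775384 for Myl9, and at chr1:135324614-135324643 and chr1:135324639-135324668 for Lmod1.
Myl9 upstream match: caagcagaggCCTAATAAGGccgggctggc
Myl9 downstream match: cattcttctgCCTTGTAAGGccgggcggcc
Lmod1 upstream match: gcccccttgtCTTTAAAAGGctaaactgct
Lmod1 downstream match: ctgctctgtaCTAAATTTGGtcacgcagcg

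The first Myl9 match has no mismatch. The windows of Cnn1, Des, Mylk and Tpm2 held none of these letters. Matches with at most 1 mismatch were present in 3 of the 7 windows of these genes and in 21.1% of all 32851 promoter windows of the same length. At least 2 such matches were present in the same 3 windows and in 3.7% of all windows. A match with no mismatch was present in 1 of the 7 and in 1.63% of all windows.

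At day 3 after C1q, no contractile gene was called higher or lower than in the saline lungs. The count was 0 of 10 in edgeR's quasi-likelihood fit with Benjamini-Hochberg adjustment over 13473 genes, where 4 genes or 0.0297% were called, and the smallest adjusted p of the 10 was 0.647. An unadjusted p under 0.05 was reached by 0 of 10, against 8.16% of all genes tested (4.22% higher and 3.94% lower). That count was 1 of 10, Cnn1, without saline replicate 3 and with the transcript length offsets described below, which were added after seeing the data. In 0 of 10 did the C1q and saline libraries fail to overlap, against 14.1% of all genes (8.12% with all C1q libraries above and 5.96% with all below). The median log2 fold change of the 10 genes was -0.0091, and that of all genes tested was -0.012. Summed over the 10 genes, the level was 1297, 1243 and 1084 CPM in C1q replicates 1 to 3, against 1235, 1251 and 1143 CPM in saline replicates 1 to 3. The highest and the lowest of these 6 sums were both C1q libraries.

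**Figure D1:**
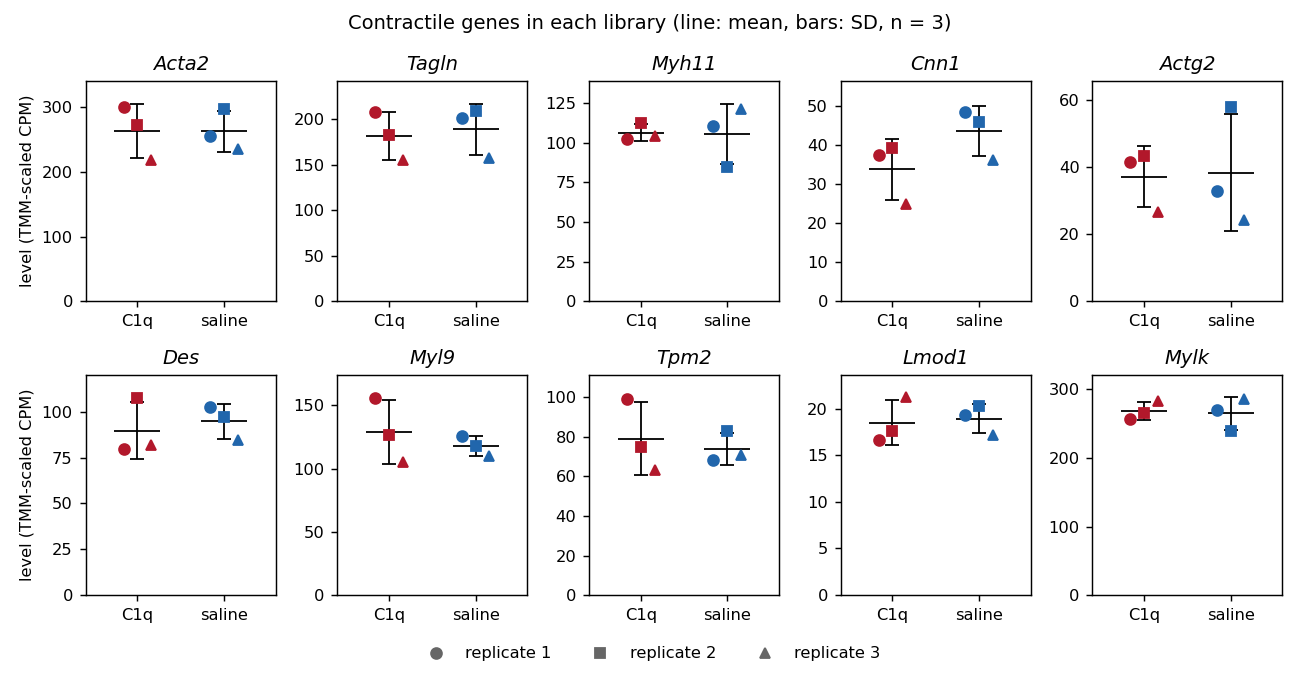
Level of each contractile gene in CPM (vertical axis from 0, scaled by TMM) in the 3 C1q libraries (red) and the 3 saline libraries (blue), with the group mean as a line and the SD as bars. The groups overlap for all 10 genes, and replicate 3 is the lowest library of its group for Acta2, Tagln, Cnn1, Actg2 and Myl9 in both groups.

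The actins form the thin filament on which myosin pulls. Acta2 (ENSMUSG00000035783.9, minus strand of chromosome 19 from 34241090 to 34255590, 9 exons) encodes the smooth muscle alpha actin. It stood at 299.5, 273 and 218 CPM in C1q replicates 1 to 3, against 255, 297 and 235 CPM in saline replicates 1 to 3. The C1q libraries thus included both the highest and the lowest Acta2 value. The log2 fold change was 0.0069 ± 0.17 (SE), and its 95% interval ran from -0.37 to 0.38, which is 0.776-fold to 1.30-fold. The sign turned with the DESeq2 size factors, with library size alone and in other settings given below, while the value stayed between -0.096 and 0.13 with any 1 library left out.

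Actg2 (chromosome 6, 83512905 to 83536265) encodes the gamma actin typical of visceral smooth muscle. Its levels were 41.5, 43.4 and 26.6 CPM in C1q, against 32.8, 57.9 and 24.3 CPM in saline. Saline replicate 2 was the highest library and saline replicate 3 the lowest, a 2.38-fold range within 1 group. This was the most uneven of the 10 genes, with a coefficient of variation of 24.7% in C1q and 45.6% in saline. Its log2 fold change of -0.025 ± 0.30 (SE) had the widest interval, from -0.68 to 0.63, and was 0.40 without saline replicate 2 (adjusted p = 0.562 in edgeR).

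The muscle actins are nearly identical in their coding parts, so reads could in principle be split between them. Within the first 200 bases of the annotated coding transcripts, 0 of 171 stretches of 30 bases in Acta2 and 0 of 257 in Actg2 occurred in a transcript of another gene. Among the 10 genes such a stretch was found only in Tpm2, where 8 of 378 were shared with Tpm1. Nothing in the labels says whether reads beyond the transcript start were counted. For Acta2 the GENCODE start lies upstream of the RefSeq start used above. Reads that begin at the RefSeq start may lie beyond the bases searched, and their sharing was not tested.

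Proteins that bind and regulate the actin filament came next. Tagln (chromosome 9, 45929619 to 45936058) encodes transgelin, or SM22, an actin-bundling protein and an early marker of smooth muscle. It had 208, 183 and 155 CPM in C1q and 202, 209 and 157 CPM in saline. Replicate 3 was the lowest library in both groups, and the groups overlapped. The log2 fold change was -0.054 ± 0.17 (SE, 95% interval -0.43 to 0.32). The annotation places Pcsk7 and an antisense transcript on the opposite strand across parts of Tagln, and Pcsk7 had 471 counts over all 6 libraries.

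Cnn1 (chromosome 9, 22099216 to 22109630) encodes calponin, which restrains the actin-activated myosin motor and marks differentiated smooth muscle. Its levels were 37.3, 39.2 and 24.8 CPM in C1q, against 48.5, 45.7 and 36.2 CPM in saline. The C1q mean of 33.8 ± 7.80 CPM compares with 43.5 ± 6.45 CPM in saline (SD, n = 3 each), and the groups overlapped through the lowest saline library. This was the farthest of the 10 from no difference, with a log2 fold change of -0.35 ± 0.20 (SE, 95% interval -0.80 to 0.095, edgeR adjusted p = 0.647). Its value ran from -0.47 without saline replicate 3 to -0.18 without C1q replicate 3.

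Tpm2 (chromosome 4, 43514711 to 43523765) encodes beta-tropomyosin, which lies along the actin filament. It stood at 99.3, 74.8 and 63.2 CPM in C1q and at 68.2, 83.0 and 70.6 CPM in saline. C1q replicate 1 was the highest of the 6 and C1q replicate 3 the lowest. Lmod1 (chromosome 1, 135324807 to 135368065) encodes leiomodin, which starts new actin filaments in smooth muscle. Its levels were 16.6, 17.6 and 21.2 CPM in C1q and 19.3, 20.2 and 17.2 CPM in saline, from 46 to 60 counts per library. The log2 fold changes were 0.11 ± 0.19 (SE) for Tpm2 and -0.042 ± 0.20 (SE) for Lmod1.

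The motor genes come next. Myh11 (chromosome 16, 14194535 to 14291372, 41 exons in the longest coding transcript) encodes the smooth muscle myosin heavy chain and is the most restricted marker of the lineage. Its levels were 102, 112.5 and 104 CPM in C1q and 111, 84.6 and 121 CPM in saline. All 3 C1q values lay inside the saline range. The mean was 106 ± 5.52 CPM in C1q and 105 ± 18.8 CPM in saline (SD, n = 3 each), a log2 fold change of 0.011 ± 0.16 (SE, 95% interval -0.35 to 0.37).

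Myl9 (chromosome 2, 156775420 to 156781658) encodes the regulatory light chain that the kinase phosphorylates. It had 156, 126 and 106 CPM in C1q, against 126, 118 and 110.2 CPM in saline. The C1q libraries again spanned the whole saline range, and the log2 fold change was 0.14 ± 0.17 (SE), the highest of the 10. Without C1q replicate 1 it was -0.022. Mylk (chromosome 16, 34745210 to 35002420) encodes the kinase itself and, from a promoter inside the gene, the small protein telokin. Its levels were 257.5, 265 and 283 CPM in C1q, against 270.4, 239 and 286.5 CPM in saline. The log2 fold change of 0.017 ± 0.14 (SE) had the narrowest interval of the 10, from -0.30 to 0.34.

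Des (chromosome 1, 75360329 to 75368579) encodes desmin, the intermediate filament protein of muscle. It stood at 79.9, 108 and 81.7 CPM in C1q and at 103, 97.2 and 84.4 CPM in saline. C1q replicate 2 was the highest of the 6 libraries and the other C1q libraries were the lowest. The log2 fold change was -0.080 ± 0.17 (SE, 95% interval -0.45 to 0.29).

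A p above the threshold does not show equal levels, so the intervals set the limit of what could have been missed. All 10 intervals lay within a 2-fold difference in either direction. For Acta2, Tagln, Myh11, Des, Lmod1 and Mylk, 6 of the 10, the interval lay within 0.5 on the log2 scale either side of 0, as it did for 18.9% of all genes tested. The interval width was 0.64 to 1.32 for the 10 genes, and its median over all genes tested was 0.996. The share among genes of like abundance was not taken, so these shares do not show that the contractile genes were steadier than others. The intervals of Cnn1, Actg2, Myl9 and Tpm2 reached beyond that. In 8 of the 10 genes, all but Cnn1 and Des, the sign of the log2 fold change turned when some 1 library was left out. Over all 14 other settings no value of the 10 was below -0.47 or above 0.40, and the smallest adjusted p was 0.402.

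**Figure D2:**
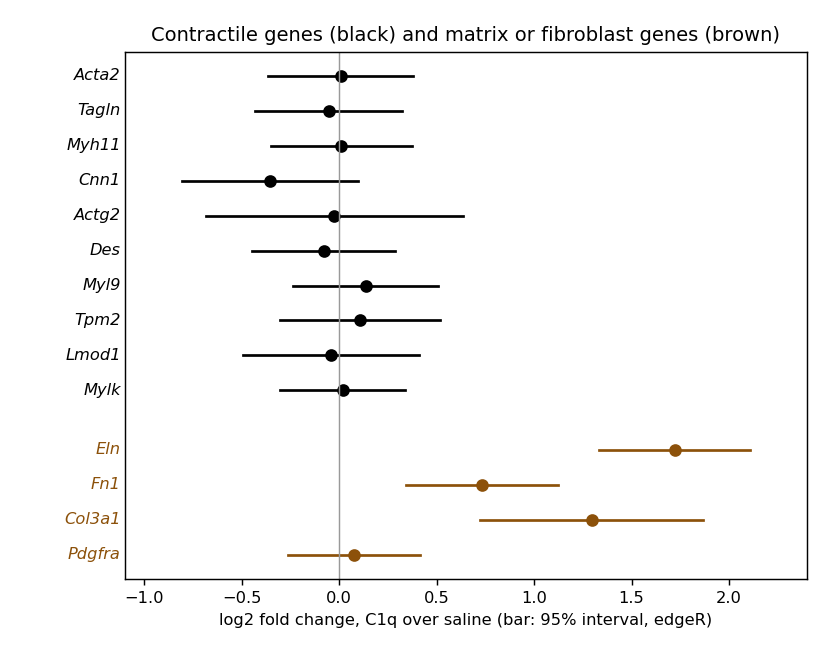
Log2 fold change of C1q over saline (horizontal axis) with its 95% interval from the edgeR fit, for the 10 contractile genes (black) and for Eln, Fn1, Col3a1 and Pdgfra (brown). All black intervals include 0, as does that of Pdgfra. Those of Eln (1.33 to 2.11), Fn1 (0.34 to 1.12) and Col3a1 (0.72 to 1.87) lie above 0. The intervals are not adjusted for the number of genes, and of these 4 brown genes only Eln was called.

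Matrix genes of myofibroblasts were read in the same libraries. Of 9 listed matrix genes of myofibroblasts 7 were tested, and 1, the elastic fibre gene Eln, was called higher after C1q. Eln was at 526, 441 and 586 CPM in C1q, against 172, 167 and 131.5 CPM in saline (log2 fold change 1.72 ± 0.18 SE, edgeR adjusted p = 0.00723). Without C1q replicate 1 the log2 fold change was 1.71 with an adjusted p of 0.0871, and without saline replicate 1 it was 1.80 with an adjusted p of 0.126. Fn1, which encodes fibronectin, had a log2 fold change of 0.73 ± 0.18 (SE) and did not pass (adjusted p = 0.375), while it passed with no filter on low counts (0.00866) and with length offsets (0.0286). Postn, which encodes the matricellular protein periostin, was at 206 ± 13.6 CPM in C1q and 193 ± 39.0 CPM in saline. Lrrc15, a marker of fibrosis-associated fibroblasts, had 1 count in the C1q libraries and 0 in the saline libraries. The log2 fold change was above 0 for all 7 tested genes of the list (median 0.33) and for 5 of the 10 contractile genes. For Postn (0.091 ± 0.17 SE), Cthrc1 (0.28 ± 0.44 SE), Ltbp2 (0.26 ± 0.21 SE) and Col8a1 (0.33 ± 0.33 SE) the interval included 0. It lay above 0 for Eln, Fn1 and Tnc (1.11 ± 0.33 SE), and the groups overlapped for Tnc. Members of the list were chosen with earlier results of these data known. No share over all genes is at hand, so these counts do not test a contrast between the lists.

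Because a ratio of counts within 1 library does not depend on scaling by library size, Eln was also set against the contractile genes directly. Such a ratio is not free of the differences between libraries that moved with transcript length, described below. Their part in it was not tested. For each Acta2 count there were 1.76, 1.61 and 2.69 Eln counts in C1q replicates 1 to 3, against 0.674, 0.563 and 0.559 in saline replicates 1 to 3. All C1q ratios lay above all saline ratios. The mean log2 ratio was 1.72 higher in C1q, 3.30-fold, with p = 0.1 in an exact permutation test, two-sided, the smallest p that 3 against 3 allows. With Myh11 in place of Acta2 the difference was 1.70, and with the sum of the 10 genes it was 1.73, both at p = 0.1 in the same exact test. With 1 library left out the difference for Acta2 was 1.5 to 1.87, lowest without C1q replicate 3. Eln was known to be called before this ratio was formed, so the ratio is no independent evidence on Eln. Of 13 listed fibroblast genes 13 were tested and 0 were called. Their median log2 fold change was 0.48, with 11 of 13 above 0 and 2 below. In 10 of 13 all C1q libraries lay above all saline libraries, against 8.12% of all genes. These were the collagen genes Col1a1, Col1a2 and Col3a1, and Dcn, Lum, Dpt, Mfap5, Pi16, Tcf21 and Npnt. The groups overlapped for Pdgfra, Col13a1 and Inmt. The list was chosen with earlier results of these data known, so this share does not test a shift of fibroblast genes in general. The most abundant gene of the list, Inmt, was at 3295 ± 608 CPM in C1q and 3819 ± 1041 CPM in saline (SD, n = 3 each). Its log2 fold change was -0.21 ± 0.23 (SE), and that of Npnt was 0.22 ± 0.15 (SE). The collagen genes Col3a1 and Col1a2 had log2 fold changes of 1.30 ± 0.26 and 0.86 ± 0.16 (SE) without passing in edgeR (adjusted p = 0.245 and 0.231), while DESeq2, the fit with no filter and the fit with length offsets (adjusted p = 0.017 for each) called both. Col3a1 also passed without saline replicate 3 (adjusted p = 0.0438). Pdgfra, which marks lung fibroblasts at large, was at 269 ± 37.5 CPM in C1q and 255 ± 13.0 CPM in saline.

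**Figure D3:**
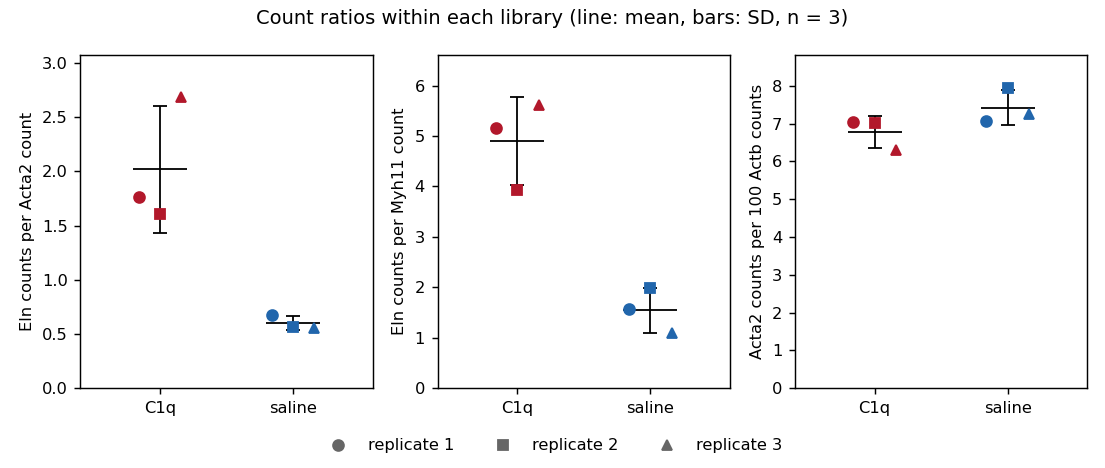
Counts of Eln per count of Acta2 (left) and of Myh11 (middle), and counts of Acta2 per 100 counts of the cytoplasmic actin gene Actb (right), in each C1q library (red) and saline library (blue), with mean and SD. The Eln ratios are higher in C1q without overlap between the groups. The Acta2 to Actb ratio is 6.3 to 7.04 in C1q and 7.07 to 7.94 in saline, also without overlap.

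Against the cytoplasmic actin of all cells, Acta2 made 7.04, 7.02 and 6.3 counts per 100 Actb counts in C1q, against 7.07, 7.94 and 7.24 in saline. All C1q ratios lay below all saline ratios, the nearest pair being C1q replicate 1 at 7.04 and saline replicate 1 at 7.07. No test was run on this ratio, and no share over all genes is at hand for it. In CPM, Acta2 and Actb each overlapped between the groups. Actb itself averaged 3869 ± 396 CPM in C1q and 3533 ± 254 CPM in saline (SD, n = 3 each). The second cytoplasmic actin gene, Actg1, was at 3691 to 4269 CPM in C1q and 2717 to 3367 CPM in saline, without overlap and without a call (log2 fold change 0.34 ± 0.17 SE, edgeR adjusted p = 0.607). Of 16 listed non-muscle relatives of the 10 genes, 15 were tested, 0 were called, and their median log2 fold change was 0.014. In 2 of the 15, Actg1 and Tpm4, all C1q libraries lay above all saline libraries, against 8.12% of all genes. Tpm4, a cytoplasmic tropomyosin gene, was at 542 ± 10.6 CPM in C1q and 457 ± 49.8 CPM in saline, and Myl12a, a non-muscle light chain gene, at 1001 ± 243 CPM in C1q and 1045 ± 248 CPM in saline.

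Further genes of the smooth muscle machinery gave no call. Of 24 listed genes 21 were tested and 0 were called in either direction, with a median log2 fold change of -0.093. The groups did not overlap for 4 of the 21, against 14.1% of all genes: Csrp1 and Kcnmb1 lay above and Prkg1 and Pdlim3 below in all C1q libraries. Tpm1, which encodes alpha-tropomyosin, averaged 260.1 ± 29.5 CPM in C1q and 262 ± 28.4 CPM in saline. Cald1, which encodes the actin-binding protein caldesmon, was at 229 ± 19.6 CPM in C1q and 248 ± 15.7 CPM in saline, and Vcl, for the adhesion protein vinculin, at 237 ± 35.3 CPM in C1q and 267 ± 38.7 CPM in saline.

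The lowest p of this list belonged to Ppp1r14a, which encodes CPI-17, an inhibitor of the phosphatase that removes the light chain phosphate. It stood at 87.1, 96.6 and 87.1 CPM in C1q, against 134, 207 and 87.8 CPM in saline. Saline replicate 3 lay among the C1q values, and the log2 fold change of -0.66 ± 0.26 (SE) did not pass (edgeR adjusted p = 0.602) and ran from -0.91 to -0.29 with 1 library left out. Prkg1, which encodes the kinase through which nitric oxide relaxes smooth muscle, had a log2 fold change of -0.35 ± 0.19 (SE), which ran from -0.45 to -0.21 with 1 library left out and was smallest in size without C1q replicate 1.

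Of 11 listed regulators of the contractile programme 11 were tested and 0 were called, with a median log2 fold change of 0.0019. Srf, the factor that binds the CArG box, averaged 85.4 ± 6.54 CPM in C1q and 93.4 ± 11.8 CPM in saline. Its smooth muscle partner Myocd was sparse, at 7.72 ± 1.91 CPM in C1q and 7.24 ± 1.88 CPM in saline. Mef2c, a muscle transcription factor gene that other cell types also use, was at 73.0 ± 11.6 CPM in C1q and 94.2 ± 49.9 CPM in saline. Klf4, a repressor of the programme and a stress-responsive factor of many cell types, had a log2 fold change of -0.31 ± 0.18 (SE), and of -0.11 without saline replicate 2. Mrtfb encodes a relative of myocardin that moves to the nucleus when actin polymerises. It stood at 57.0, 54.3 and 60.9 CPM in C1q, against 80.7, 68.4 and 102 CPM in saline. All C1q libraries lay below all saline libraries, which holds for 5.96% of all genes tested, and the log2 fold change of -0.55 ± 0.17 (SE) did not pass (edgeR adjusted p = 0.529).

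Among 15 listed receptors and channels that start contraction, 11 were tested and 0 were called, with a median log2 fold change of -0.16. The endothelin receptor gene Ednrb, which endothelial cells also express, was at 107 ± 14.0 CPM in C1q and 127 ± 20.3 CPM in saline. Itpr1, for a calcium release channel, was at 93.5 ± 16.4 CPM in C1q and 86.0 ± 20.2 CPM in saline. The alpha-adrenergic receptor gene Adra1a was at 54.3 ± 8.27 CPM in C1q and 56.5 ± 3.99 CPM in saline. Chrm2, a muscarinic receptor gene of airway muscle, was at 14.9, 13.4 and 13.1 CPM in C1q, against 20.6, 16.6 and 18.7 CPM in saline. All C1q libraries lay below all saline libraries for 1 of the 11 tested genes, Chrm2, against 5.96% of all genes. The log2 fold change of Chrm2 was -0.43 ± 0.21 (SE) and did not pass (edgeR adjusted p = 0.613).

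**Figure D4:**
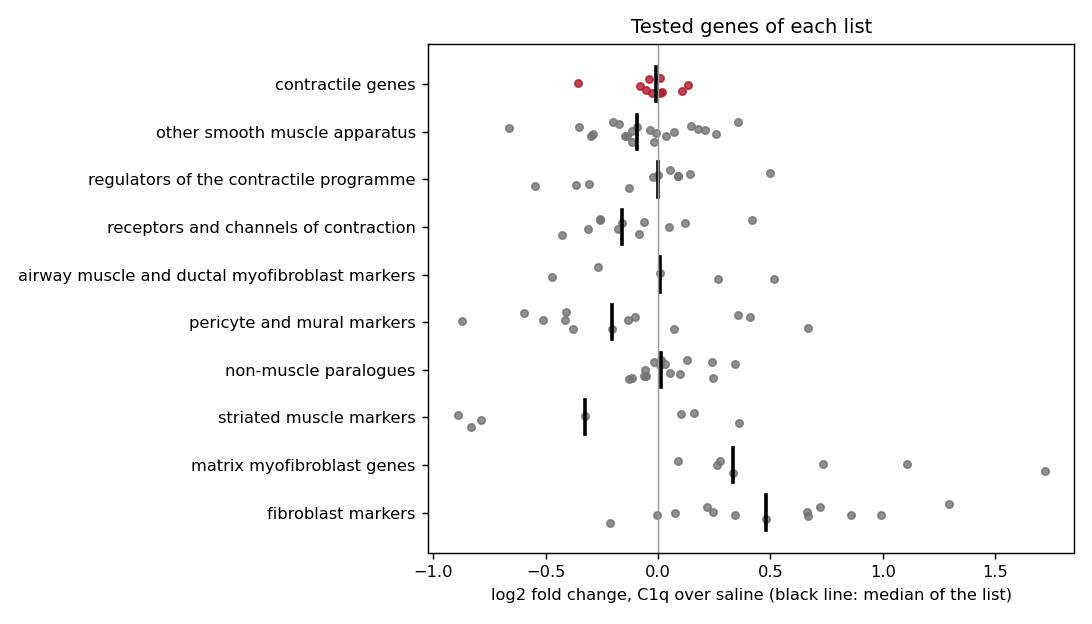
Log2 fold change of C1q over saline (horizontal axis) for every tested gene of 10 lists, 1 point per gene with vertical scatter for visibility, and the median of each list as a black line. The contractile genes (red) run from -0.35 to 0.14, and the fibroblast list has its median at 0.48.

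Markers of the cell types that carry the contractile genes gave no call, and 9 of 13 pericyte and mural markers had a log2 fold change below 0. For airway muscle and ductal myofibroblasts, 5 of 6 markers were tested and 0 were called. Hhip, an antagonist of hedgehog signalling expressed in these cells, was at 82.7, 56.1 and 86.2 CPM in C1q and 48.5, 43.3 and 65.4 CPM in saline, with overlapping groups and a log2 fold change of 0.52 ± 0.21 (SE, edgeR adjusted p = 0.602). Mustn1 was at 25.4 ± 3.47 CPM in C1q and 35.7 ± 14.3 CPM in saline, and the small proteoglycan gene Aspn at 21.1 ± 4.56 CPM in C1q and 17.8 ± 4.43 CPM in saline. The summed level of the 6 markers was 113 to 152 CPM in C1q and 106 to 130.4 CPM in saline.

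For pericytes and other mural cells, which share several contractile genes with muscle, 13 of 13 markers were tested and 0 were called. Their median log2 fold change was -0.20, and in 5 of 13 all C1q libraries lay below all saline libraries, against 5.96% of all genes. An unadjusted edgeR p under 0.05 was reached by 6 of 13 lower and 0 higher, against 3.94% and 4.22% of all genes. The list was chosen with earlier results of these data known, so these shares are no test of it. In 1 of 13, Kcnj8, all C1q libraries lay above, against 8.12% of all genes. The log2 fold change was above 0 for 4 of 13 and below 0 for 9. Their summed level was 584 to 661 CPM in C1q and 720 to 807 CPM in saline. Higd1b, a pericyte gene, was at 16.6, 19.0 and 16.7 CPM in C1q, against 34.1, 41.3 and 20.5 CPM in saline (log2 fold change -0.87 ± 0.25 SE, edgeR adjusted p = 0.501). Cox4i2, a respiratory chain subunit gene of pericytes, had a log2 fold change of -0.60 ± 0.20 (SE). Gucy1a1 and Gucy1b1 encode the subunits of the nitric oxide receptor guanylate cyclase and had -0.38 ± 0.17 and -0.41 ± 0.18 (SE). Those above 0 were the potassium channel genes Kcnj8 (0.67 ± 0.31 SE) and Abcc9 (0.36 ± 0.20 SE), the pericyte gene Rgs5 (0.41 ± 0.44 SE) and the proteoglycan gene Cspg4 (0.070 ± 0.28 SE), also without a call. The adhesion molecule gene Mcam, shared by pericytes, muscle and endothelium, was at 132 ± 14.5 CPM in C1q and 141 ± 10.7 CPM in saline. The part of mural cells in the contractile gene levels was not tested. Of 7 endothelial markers 7 were tested and 0 were called, and the log2 fold change was below 0 for all 7 (median -0.24). Their summed levels were 2798 to 3557 CPM in C1q and 3333 to 3831 CPM in saline, which overlap.

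The 10 genes varied between libraries of 1 group. The coefficient of variation ran from 4.88% to 24.7% in C1q and from 6.58% to 45.6% in saline. Counting error alone gives 3.58% for Acta2 in C1q and 3.73% in saline, where the spread was 15.8% in C1q and 12% in saline. For Lmod1, with a mean of 52.3 counts in C1q and 52.0 in saline, the spread of 13.1% in C1q and 8.28% in saline was no wider than counting error, and neither was that of Myh11 in C1q. C1q replicate 3 was the lowest C1q library for 6 of the 10 genes, and saline replicate 3 the lowest saline library for 7.

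The differences within groups moved with transcript length. The 4 genes with the shortest transcripts were Myl9 (1128 bases in its longest coding transcript), Actg2 (1333 bases), Tagln (1595 bases) and Acta2 (2035 bases). In that order they were higher in C1q replicate 1 than in C1q replicate 3 by 0.56, 0.63, 0.42 and 0.46 on the log2 scale. They were higher in saline replicate 2 than in saline replicate 3 by 0.096, 1.23, 0.41 and 0.34, so the shortest, Myl9, differed least there. The genes with the longest transcripts, Myh11 (6549 bases) and Mylk (7824 bases), differed the other way, by -0.031 and -0.14 between the C1q libraries and by -0.51 and -0.26 between the saline libraries. Lmod1 (3948 bases) differed by -0.34 between the C1q libraries and by 0.23 between the saline libraries. Both library pairs were picked with their values in view.

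The same held across the table. Over 12237 tested genes with a coding transcript, the rank correlation of transcript length with the log2 difference was -0.43 between the C1q libraries and -0.50 between the saline libraries, across genes, which are not independent replicates. In the fifth of genes with the shortest transcripts, up to 1817 bases, the median difference was 0.29 between the C1q libraries and 0.44 between the saline libraries. In the fifth with the longest, from 5224 bases, it was -0.18 between the C1q libraries and -0.31 between the saline libraries. When a smooth of each library on transcript length was taken out, a step added after seeing the data, the SD within groups became smaller for 9 of the 10 genes and for 63.5% of all genes with a coding transcript. For Tagln the within-group SD was 0.081 with this step and 0.216 without it, on the log2 scale. The smooth was fitted to these same values, so a smaller SD is in part built in and is no test of the link with length. With these offsets 0 of the 10 genes were called, Acta2 had a log2 fold change of -0.061 and Cnn1 of -0.41 (edgeR adjusted p = 0.895 and 0.402), and 32 genes in all were called, 31 of them higher.

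**Figure D5:**
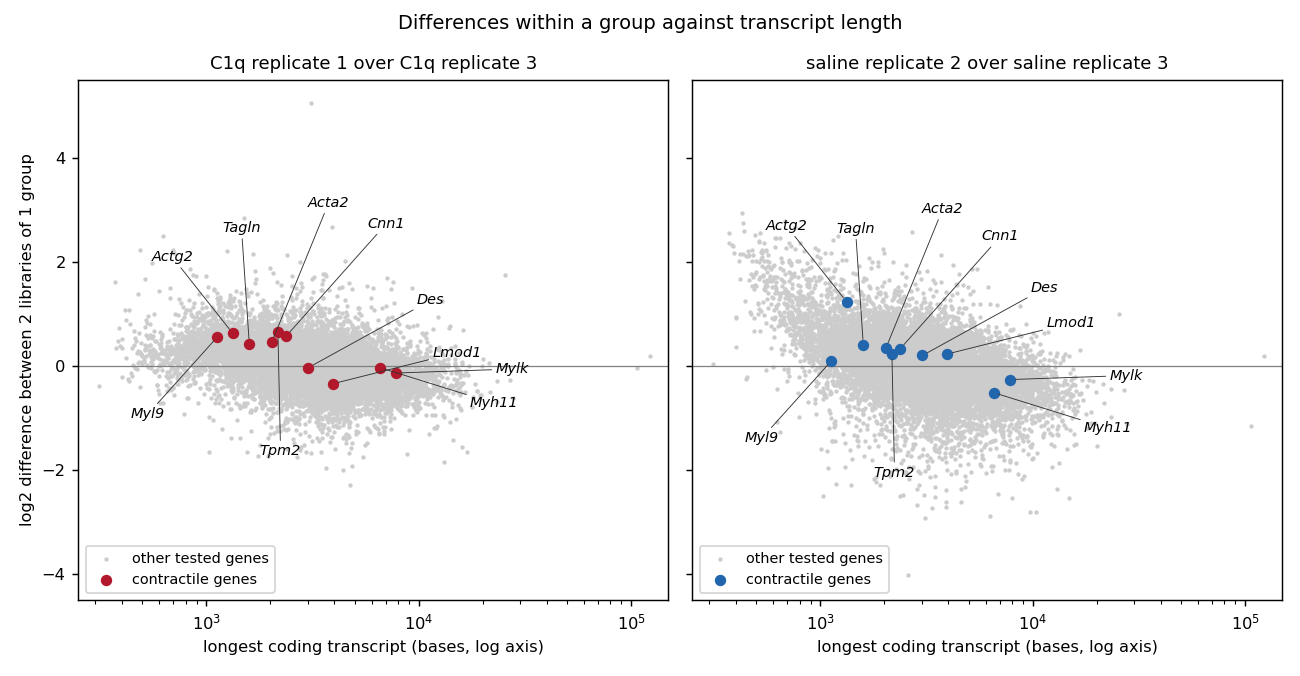
Log2 difference between C1q replicates 1 and 3 (left) and between saline replicates 2 and 3 (right) against the length of the longest coding transcript in bases (log axis), for 12237 genes (grey) and the 10 contractile genes (coloured and named). Points scatter widely on both sides of 0, with the median above 0 for genes of up to 1817 bases and below 0 for those from 5224 bases, and in the saline pair Actg2 lies at 1.23 and Myh11 at -0.51.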

How the data were processed

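RNA of digested lung cells was measured in 6 libraries. The authors deposited raw counts, 1 whole number for each gene symbol in each library. Trimming and alignment tools listed in the submitters' processing notes are cutadapt 2.1.0 and Bowtie2 2.4.2, with GRCm38 as build. For the counting step, its annotation, strand handling and molecular identifiers, the label text gives nothing. Strand being unknown, reads of a gene and of its antisense partner cannot be told apart.

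Groups came from the treatment label, and replicate numbers, given in accession order, pair no samples. The labels do not say that each sample was a separate animal, so p-values measure the spread between these samples. Chi-square per degree of freedom over all 15 pairs of libraries was 4.74 to 14.6, so each was counted as 1 sample. The members and the other gene lists were chosen with earlier results of these data known.

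Of 26890 genes, edgeR's filterByExpr kept 13473. After TMM scaling, a quasi-likelihood test in edgeR 4.0.16 (glmQLFit and glmQLFTest) compared the treatments two-sided with no covariate, and p-values were Benjamini-Hochberg adjusted across the genes kept, with 0.05 as threshold. Standard errors and 95% intervals came from the fold change, its F statistic and the fit's degrees of freedom. The script was tested on simulated data. Alternatives were upper-quartile scaling, DESeq2 size factors, library size only, 2 other filters, DESeq2 1.42.0, limma-voom (limma 3.58.1), leaving out each library, and offsets for transcript length, which were added after seeing the data. Named genes were taken from the 10 members, the most abundant 3 and the 2 with the smallest p-value of each list, and the 5 genes most like the members. Myocd, Pdgfra, Csrp1, Kcnmb1, Pdlim3, Kcnj8, Abcc9, Rgs5, Cspg4, Myh7, Tnnt2, Myh6, Tnni3 and Lrrc15 were chosen after their values were seen. So were Col1a1, Dcn, Lum, Dpt, Mfap5, Pi16, Tcf21, Col13a1, Tnc, Cthrc1, Ltbp2 and Col8a1. Gene positions and transcript lengths come from GENCODE M21 on GRCm38, and promoter sequences from RefSeq on GRCm38.p6.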

Additional observations from a re-analysis of the deposited data

How the results depend on the processing

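The count of called contractile genes was 0 in the main fit and in all 14 other settings. The number of genes called over the whole table was 4 in the main fit, 373 with no filter on low counts, 32 with DESeq2, 32 with length offsets, and 0 to 10 with 1 library left out. The log2 ratio of Eln to Acta2 was 1.5 to 1.87 higher in C1q with 1 library left out. Contractile genes with values near 0 turned sign: Acta2 was -0.00076 with DESeq2 size factors, -0.027 with library size only, -0.0033 with the stricter filter, -0.00011 with DESeq2, -0.0016 with limma-voom and -0.061 with length offsets; Myh11 was -0.041 and Mylk -0.028 with library size only; Actg2 was 0.0035 with no filter and 0.057 with limma-voom. Of the other genes, Tpm1 was 0.020 with no filter and Sftpc 0.14 with length offsets. The cause of these turns was not tested. With 1 library left out the log2 fold change ran from -0.096 to 0.13 for Acta2, -0.17 to 0.053 for Tagln, -0.12 to 0.12 for Myh11, -0.26 to 0.40 for Actg2, -0.022 to 0.26 for Myl9, -0.096 to 0.25 for Tpm2, -0.14 to 0.035 for Lmod1, -0.046 to 0.076 for Mylk, -0.093 to 0.083 for Tpm1, -0.15 to 0.062 for Adra1a, -0.094 to 0.28 for Myocd, -0.060 to 0.20 for Postn, -0.042 to 0.15 for Pdgfra, -0.22 to 0.10 for Ptprc and -0.27 to 0.27 for Sftpc. No paired analysis was possible because the labels number the 2 groups differently. With counts of 46 to 1083 per library for the contractile genes, only Lmod1 in both groups and Myh11 in C1q had a spread no wider than counting error.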

Other observations

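The muscle actin genes of heart and skeleton were read in the same lung libraries. Actc1, the actin gene of heart muscle, was at 96.0, 113 and 90.7 CPM in C1q replicates 1 to 3, against 124, 140.1 and 111 CPM in saline replicates 1 to 3, with a log2 fold change of -0.32 ± 0.16 (SE, edgeR adjusted p = 0.609). Acta1, the actin gene of skeletal muscle, averaged 29.5 ± 6.99 CPM in C1q and 23.0 ± 6.69 CPM in saline (SD, n = 3 each). Other heart muscle genes had few counts. Myh6 had 5 to 12 counts per library in C1q and 6 to 10 in saline, and Tnni3 3 to 10 in C1q and 4 to 6 in saline, and both failed the filter on low counts. Myh7, a heavy chain gene of heart and slow skeletal muscle, had 18 to 29 counts in C1q and 16 to 24 in saline, and the troponin gene Tnnt2 17 to 30 in C1q and 17 to 23 in saline, and both were tested. Within the first 200 bases of its annotated transcript, 0 of 171 stretches of 30 bases in Actc1 occurred in a transcript of another gene. Of 19 listed striated muscle genes 7 were tested and 0 were called. The atrial light chain gene Myl4 was at 6.98 ± 0.665 CPM in C1q and 12.3 ± 3.10 CPM in saline, with no call (edgeR adjusted p = 0.566). All C1q libraries lay below all saline libraries for Myl4, 1 of the 7 tested genes, against 5.96% of all genes.

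By the likeness rule, the 5 genes whose log2 CPM followed the mean of the 10 standardised contractile genes most closely over the 6 libraries were Rab5c, Bod1, Wdr18, Tmbim6 and Ptgis, out of 7727 genes at a mean of at least 20 CPM. The mean does not stand for each of the 10 genes: Mylk, Lmod1 and Myh11 ran against it, with Pearson r of -0.735, -0.342 and -0.321, and the other 7 had 0.582 to 0.93. For the 5 most similar genes Pearson r was 0.981 to 0.988 and Spearman rho 0.486 to 0.771, given as a description. Ptgis encodes prostacyclin synthase, which makes a relaxant of smooth muscle. It was at 135.5, 143 and 99.3 CPM in C1q, against 134, 139 and 105 CPM in saline, and its log2 fold change was 0.0023 ± 0.18 (SE). In both groups replicate 3 was the lowest library for all 5 genes. It was also the lowest for the mean by which they were picked, at -0.631 in C1q and -0.381 in saline. The shared low library thus follows from the selection.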
